A study of Mus musculus with 44 samples.

Results

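Joins with insertions of 10 to 30 bases are junctions in high-throughput genome-wide translocation sequencing (HTGTS) in which the read holds 10 to 30 bases that align neither to the bait nor to the prey. In HTGTS, DNA is primed next to a chosen break (the bait) and sequenced across the joint into its partner (the prey). The joins were chosen by the measured number of read bases between the bait and prey alignments, over all 32 junction tables, on chromosomes 1 to 19, X and Y, and more than 10 kb from the bait break. These joins, the members, numbered 7152 of 133105 such junctions, or 5.37%. The tables held 148726 junctions in all, of which 3131 lay on other sequences and 12490 within 10 kb of the bait.

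The libraries came from mouse embryonic fibroblasts (MEFs), labelled C57BL/6. In 26 libraries the cells were AsiSI-MEFs, in which AsiSI, a restriction enzyme with the motif GCGATCGC, is switched on from outside. Doxycycline (3 µg/ml, 24 h) and then 4-hydroxytamoxifen (4OHT, 1 µg/ml, 6 h) were given to all of them, and the labels give their genotype as WT. They were treated with 100 µM CK-666, an inhibitor of the ARP2/3 complex (6 libraries, against 6 with DMSO), with 3 µM wiskostatin, an inhibitor of the ARP2/3 activator N-WASP (2 and 2 with DMSO), or with 10 µM NU7441, an inhibitor of the end-joining kinase DNA-PK (3 and 3 with DMSO), or they expressed actin R62D-NLS, a nuclear actin mutant that does not polymerise (2 and 2 with empty vector). The other 6 libraries came from wild-type MEFs without AsiSI, in which Cas9 and a guide RNA cut the same bait (CK-666 in 3 of them, DMSO in 3). The sources used here do not say whether the fibroblasts of the replicates came from separate animals, so the tests measure the spread between libraries.

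Insertions at joins are a trace of how the ends were joined. Classical end joining can add or copy a few bases at the ends, and polymerases that prime on short matching stretches can copy longer inserts from a template near the break, in the same or in the inverted orientation. Inserts can also be fragments of other DNA, and the reads of a library can end in sequence of the library adapter.

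In mm10 coordinates the bait break was taken as the AsiSI cut at chr2:13271321, inside a motif in an untranslated region (UTR) of Rsu1. This gene encodes a Ras suppressor protein. The base at which Cas9 cut was not determined, so shares that reach the end of the motif are not like for like between baits. The reference around the break, chr2:13271305-13271334 on the plus strand, is shown with the motif in capitals because the bait alignment reached the end of the motif in 53.9% of the members of AsiSI libraries and in 21.5% of those of Cas9 libraries.
bait reference: caccctgtcccaGCGATCGCgcaggcgcac

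The commonest kind of insert is shown by a join in an intron of Trps1, which encodes a GATA-type transcriptional repressor. In the form shown it was found 21 times in 20 AsiSI libraries. The same insert occurred 29 times in 22 AsiSI libraries, 28 of them at this prey position. The first line is the reference, chr15:50889490-50889586 on the minus strand. In capitals are the 19 bases whose inverted complement is the insert, directly before the motif gcgatcgc. The second line is the same reference with, in capitals, 8 bases at both ends of the stretch before the insert's copy that are the inverted complement of each other. The third line is the read, with 16 bait bases, the insert in capitals, and then the 45 aligned prey bases.
Trps1 reference, copy in capitals: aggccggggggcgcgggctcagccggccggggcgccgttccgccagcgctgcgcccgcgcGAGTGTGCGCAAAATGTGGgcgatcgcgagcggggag
Trps1 reference, inverted ends in capitals: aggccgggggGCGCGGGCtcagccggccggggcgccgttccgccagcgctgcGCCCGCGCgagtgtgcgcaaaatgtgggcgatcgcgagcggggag
Trps1 join, insert in capitals: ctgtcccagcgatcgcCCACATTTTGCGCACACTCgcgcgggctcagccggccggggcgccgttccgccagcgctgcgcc
The read thus aligned to the bait up to the end of the motif, whose bases are the same in bait and prey. After it came the sequence beside the prey motif, read away from that motif, and then sequence from further inside, read back towards it. The recorded prey position, chr15:50889576, was the start of the turned stretch, 72 bp from the cut, whereas the insert's copy began right at the motif.

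Recurrent inserts from other places are shown with the strand and place of their copy in mm10, because they were among those of at least 15 bases seen in most libraries for their kind.
opposite strand, Romo1 UTR (chr2:156144268-156144287): agcggagaacgaggtgaggt
same strand, beside Arhgap21 (chr2:20968911-20968928): ggcgcgggagcgtggggc
same strand, Gm10800 (chr2:98667181-98667199): tcacgtcctaaagtgtgta
bait flank, Rsu1 UTR (chr2:13271337-13271352): aaaatccggccaaccc
The Romo1 insert occurred 37 times in 20 libraries, beside prey at 6 positions, whereas the others occurred 5, 7 and 2 times. Of the bait-flank insert's 2 junctions, 1 was in a Cas9 library. The Gm10800 insert lay in a 10-kb window with 1252 control junctions. Romo1 encodes a mitochondrial inner membrane protein.

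Most junctions had no insertion. In the 26 AsiSI libraries, 65.1% of 113691 junctions had bases shared by bait and prey at the join, 20.9% were direct joins with neither shared nor inserted bases, and 13.99% had an insertion. The joins with 10 to 30 inserted bases numbered 5735, or 5.04% of the junctions and 36.1% of those with an insertion. In the 6 Cas9 libraries they numbered 1417 of 19414, or 7.30%, and 27.2% of the junctions with an insertion. Without replicate 2 of both Cas9 groups they numbered 471 of 12191, or 3.86%, and 24.3% of the junctions with an insertion.

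The lengths fell steeply up to 5 bases and then slowly. AsiSI libraries had 621 junctions with 5 inserted bases, 481 with 9, 368 with 10, 430 with 15, 304 with 21, 241 with 25 and 85 with 30. The median length among the joins of 10 to 30 bases was 17 in both sets. In AsiSI libraries, 32.4% had 10 to 14 bases, 30.46% had 15 to 19 and 37.2% had 20 to 30. Cas9 libraries had 37.8%, 26.04% and 36.2%, and before the range they had 471 junctions at 6 bases between 201 at 5 and 184 at 7. This peak came from replicate 2 of both groups: the other 4 Cas9 libraries had 78, 62 and 75 junctions at 5, 6 and 7 bases. Over all 32 libraries, the lower limit of the range lay between 611 junctions with 9 inserted bases and 493 with 10, and the upper one was fixed by the tables, which held 106 such junctions with 30 bases and none with more.

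**Figure D1:**
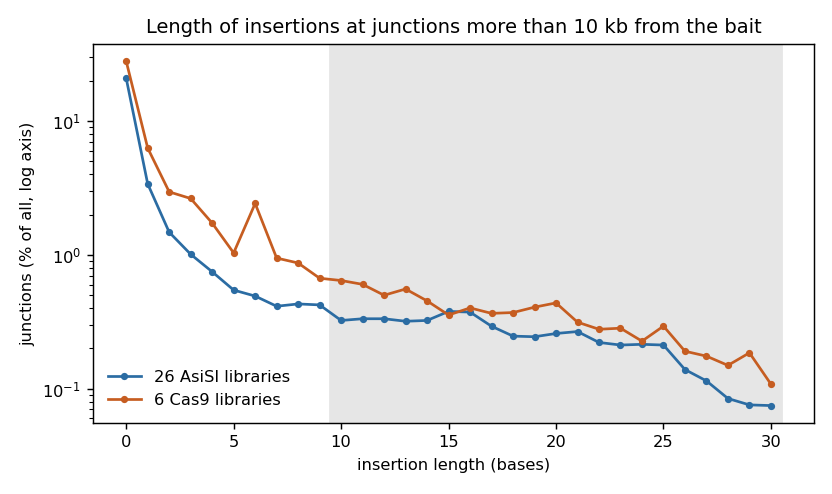
Share of junctions (percent, log axis) at each insertion length in bases, for the 26 AsiSI libraries (blue) and the 6 Cas9 libraries (orange), with 10 to 30 bases shaded. From 7 to 16 bases the AsiSI line stays between 0.319% and 0.430%, and the Cas9 line has a peak at 6 bases that is absent without replicate 2 of both Cas9 groups.

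Each inserted sequence was searched for in mm10 around its own junction. In AsiSI libraries, 2754 of 5735 inserts (48.02%) had an exact full-length copy within 1 kb of the prey junction on the strand opposite to the prey read, and 214 (3.73%) on the same strand. These shares were 49.5% and 4.79% for inserts of 10 to 14 bases, and 43.1% and 2.06% for those of 20 to 30 bases. Telomeric inserts were set apart first, and with them the same-strand copies numbered 308 (5.37%). A further 596 (10.4%) had an opposite-strand copy within 200 bp with edits in up to 15% of bases, and 268 (4.67%) such a copy on the same strand. The bait flank within 1 kb held 28 inserts on the bait's strand and 3 on the other. The sequence within 500 bp of another AsiSI motif held 70 inserts of at least 15 bases, and the genome elsewhere held 44 of at least 20 bases. The telomeric repeat made up 125 inserts (2.18%), but 61 (1.09%) without NU7441 replicate 2. The library adapter was resembled by 190 (3.31%), and 1443 (25.2%) matched none of these. Opposite-strand copies in the prey flank outnumbered every other class in 19 of the 26 AsiSI libraries. In 6 libraries another class was larger and in 1 there was a tie, all from the 2 sequencing runs of CK-666 replicates 1 and 2 and NU7441 replicates 1 and 2, where unmatched inserts made up 40.4% and 50.2% of members and opposite-strand copies 32.5% and 13.4%.

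The Cas9 libraries differed in makeup. Of their 1417 inserts, 736 (51.9%) were telomeric repeat, the sequence that caps chromosome ends, 410 (28.9%) matched nothing, 75 (5.29%) had a same-strand copy and 19 (1.34%) an opposite-strand copy in the prey flank. With telomeric inserts counted as well, the same-strand copies numbered 370 (26.1%). Telomeric inserts numbered 675 in replicate 2 of both Cas9 groups and 61 in the other 4 libraries, where they made up 12.95% of 471 inserts, with 12.3% same-strand and 3.40% opposite-strand copies. No telomeric insert, in any library, had prey within 500 bp of an AsiSI motif.

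The exact test of strand used inserts of 20 to 30 bases, for which a chance match within 1 kb is least likely. In the 13 AsiSI control libraries (DMSO or empty vector), 44.3% ± 16.1 (SD, n = 13) of such inserts had an exact copy within 1 kb of the prey, between 14.6% and 62.2%. The share on the opposite strand among these exceeded that on the same strand in all 13 libraries, by 85.0 ± 22.9 percentage points (SD; lowest 25, median 91.8, highest 100; exact sign-flip permutation test over libraries, 2-sided, p = 0.000244, the smallest this test can give, adjusted p = 0.000854 over 7 comparisons). In the 3 Cas9 DMSO libraries the copy was found for 18.2%, 13.5% and 15.2%, and the difference ran the other way at -75, -100 and -100 points (exact p = 0.25, the smallest possible with 3 libraries). Simple repeats made up most of the Cas9 copies: without them the Cas9 share was 2.56% ± 4.44 (SD, n = 3).

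The opposite-strand copies of the AsiSI libraries lay in a narrow place. The copy was downstream of the junction in the direction of the prey read in 2730 of 2754 (99.1%), with a median gap of 45.5 bp (quartiles 34 and 65). The prey was proximal, under 500 bp from an AsiSI motif, in 2694 (97.8%), and of these 2680 (99.5%) read towards the motif. Their junction lay a median of 67 bp before the cut (quartiles 88 and 57). In contrast, the junctions of proximal direct joins lay a median of 2 bp past the cut, and 86.9% lay within 20 bp.

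**Figure D2:**
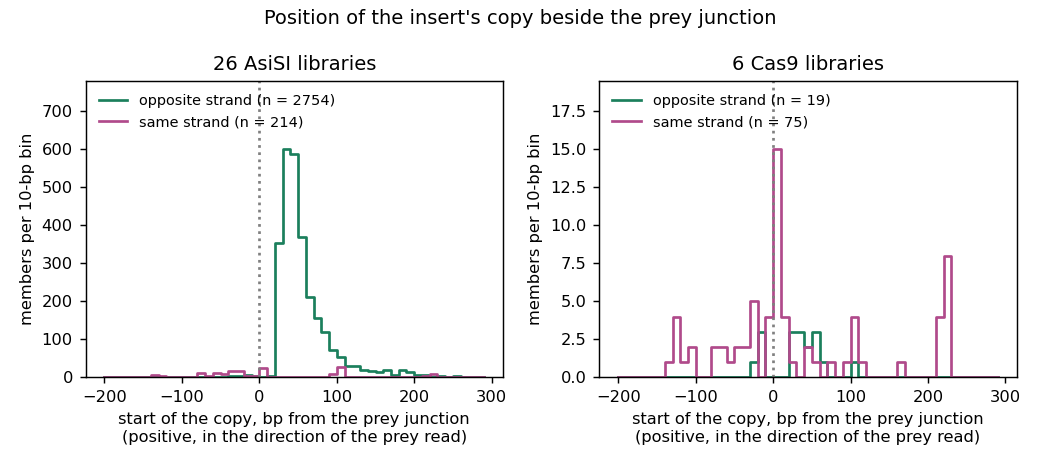
Members per 10-bp bin by the start of the insert's copy, in bp from the prey junction in the direction of the prey read, for AsiSI libraries (left) and Cas9 libraries (right). Opposite-strand copies (green) of the AsiSI libraries form a single peak downstream of the junction. Their same-strand copies (purple) are fewer and lie in several places, with 25 starting at 0 to 9 bp and 27 at 100 to 109 bp. In the Cas9 libraries same-strand copies (75) outnumber opposite-strand ones (19).

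The copy ended next to the motif. The number of bases between copy and motif had a median of 0, with quartiles of 0 and 1. It was at most 2 in 2121 of 2680 (79.1%) and exactly 0 in 1206 (45.0%). On the bait side, the alignment reached the end of the motif in 77.1% of joins with an opposite-strand copy, against 24.8% of all junctions of AsiSI libraries and 1.25% of direct joins. Bait and prey motifs have the same bases, so these bases can belong to either side of the join. A direct join at a prey motif that kept them would be counted among joins with shared bases. The low share of direct joins is thus largely set by their definition. At the inner end, the prey alignment stopped within 5 bases of the copy in 1967 (71.4%), so that the aligned stretch and the copy were neighbours in the genome. The library adapter directly followed the prey alignment in 70.2% of joins with an opposite-strand copy, against 50.7% of direct joins. Why the alignment stopped there was not tested.

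The turned stretch had matching ends. The bases before the copy, read as the inverted complement, matched the start of the prey alignment over a median of 4 bases. The match was of at least 4 bases in 1557 (56.5%), of at least 8 in 281 (10.2%) and of 0 in 90 (3.27%). Aligners can extend an alignment into such matching bases, so the split between insert and prey is set only up to their length. The prey alignments were short, with a median of 43 bp against 62 bp in direct joins.

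The direction of the prey read changed with insertion length. Among proximal prey of AsiSI libraries, 2.77% of direct joins and 9.13% of joins with shared bases read towards the motif from at least 20 bp away. The share was 14.7% with 1 inserted base, 25.3% with 1 to 4, 78.5% with 5 to 9, 89.2% with 10 to 14, 92.0% with 15 to 19 and 93.1% with 20 to 30. In the 13 control libraries it was 93.1% ± 5.58 (SD, n = 13; 78.3% to 100%) among joins with 10 to 30 inserted bases and 3.07% ± 1.49 (0.782% to 6.19%) among direct joins, so the values did not overlap. The difference was 90.1 ± 5.58 points in the same direction in 13 of 13 libraries (exact sign-flip permutation test, 2-sided, p = 0.000244, adjusted p = 0.000854). This comparison was chosen after the values were seen. In these libraries 1479 of the 1974 proximal members had an opposite-strand copy, and 1475 of those 1479 read towards the motif. The comparison therefore restates the place of those copies, and its p-value is not separate support.

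**Figure D3:**
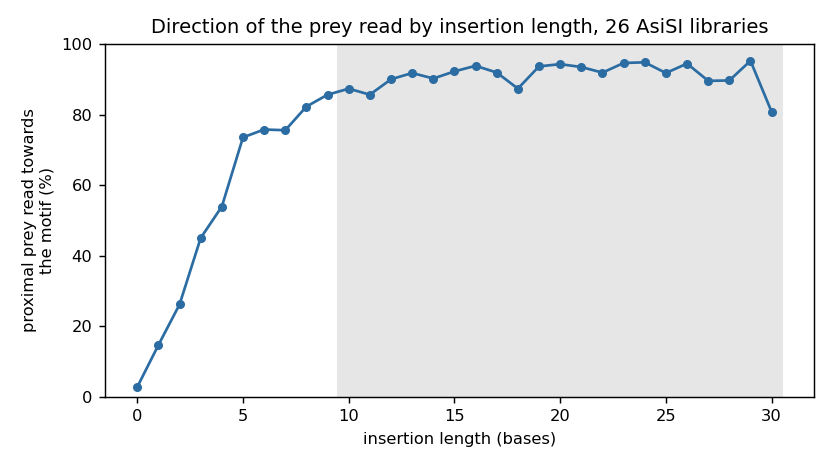
Share of proximal prey (percent) that read towards the AsiSI motif from at least 20 bp away, by insertion length in bases, in the 26 AsiSI libraries pooled, with 10 to 30 bases shaded. The share is 2.77% without insertion, 73.5% at 5 bases and above 80% from 8 bases on.

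The same joins recurred between libraries. Of the 2754 joins with an opposite-strand copy, 1729 (62.8%) had the same prey position, strand and insert in at least 2 AsiSI libraries, up to 24. The share was 8.05% for inexact opposite-strand copies, 12.6% for same-strand copies, 10.4% for telomeric inserts and 0.832% for inserts that matched nothing. These classes differ in prey: 97.8%, 92.8%, 26.6%, 0% and 12.9% of them, in the same order, were proximal. No such share was computed for direct joins. Recurrence of the insert therefore cannot be told apart from repeated cutting at the same motifs.

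Inserts without a copy looked different on the read as well. The read pair was not merged into a single read in 54.3% of them, in 96.3% of adapter-like and in 72.0% of telomeric inserts, but in 1.13% of those with an opposite-strand copy and 2.73% of direct joins. Cytosine and thymine made up 66.4% of the bases of inserts without a copy in AsiSI libraries and 74.9% of adapter-like ones, against 51.8% of those with an opposite-strand copy. Unmatched inserts of Cas9 libraries had 50.6%.

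Sites were counted in the 13 AsiSI controls. Joins with 10 to 30 inserted bases occurred at 196 of the 358 motifs that had proximal junctions, and the 5 leading motifs held 464 of 1974 (23.5%), against 10.6% of proximal junctions. The UTR of Romo1 (motif chr2:156144260-156144267) had 145 among 1695 junctions (8.55%), with prey on both sides, 73 and 72. The share there ran from 1.27% to 18.5% over libraries with at least 20 junctions (median 10.2%). The UTR of Dnmt3b, a DNA methyltransferase gene (chr2:153649703-153649710), had 117 of 1211 (9.66%), 29 on the left of the motif and 88 on the right.

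The next motifs lay outside genes. One was 49 bp from Arhgap21 (chr2:20968930-20968937), with 72 of 1205 junctions (5.98%). Another was 452 bp from Fign, which encodes a microtubule-severing enzyme (chr2:64098490-64098497), with 67 of 567 (11.8%), of which 62 were on the right. The motif 200 bp from Agap1, an Arf GTPase-activating protein gene (chr1:89454599-89454606), had 63 of 383 (16.4%), and 54 of these had an opposite-strand copy.

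Motifs with similar numbers of junctions differed widely. Over the 141 motifs with at least 100 junctions, opposite-strand copies made up between 0% and 14.1% of junctions (median 2.03%), and 18 motifs had none. The highest shares were at Agap1 (14.1% of 383), in an intron of Cnot6, a subunit gene of the CCR4-NOT deadenylase (13.9% of 108), and in a coding exon of Grsf1, an RNA-binding protein gene (13.6% of 140). No such copy was seen among 196 junctions at Rpl41, a ribosomal protein gene, 145 at Klf7, a transcription factor gene, or 127 in an intron of Slc41a1, a magnesium transporter gene. The order of motifs was similar in separate libraries: between the 6 DMSO libraries of the CK-666 experiment and the other 7 controls, the shares at 81 motifs with at least 50 junctions in both had a Pearson correlation of 0.79 and a Spearman correlation of 0.76, given as a description since motifs share libraries and base composition.

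Outside 10 kb of every motif and 5 Mb of the bait, 1142 of 14900 control junctions (7.66%) were members. The windows with the most of them are described by gene, since repeat annotation was not used. A 10-kb window at chr14:19410000-19419999, over Gm21738, held 146 of these members, and chr2:98660000-98669999, over Gm10800 and Gm10801, held 106. They were 11.6% and 8.47% of the junctions in those windows, which together held 14.9% of such junctions and 22.1% of such members. Inserts that matched nothing numbered 82 in the former, its largest class, and 29 in the latter. Same-strand copies, exact and inexact, numbered 34 and 24 in the former and 26 and 43 in the latter. The window chr13:53010000-53019999, over Gm33424, had 26 such joins among only 31 junctions, all 26 in unmerged reads.

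Prey class was compared with direct joins of the same library. In the 13 controls, 60.5% ± 20.8 (SD) of the joins with 10 to 30 inserted bases and 73.2% ± 6.04 of the direct joins were proximal. The difference was -12.7 ± 20.8 points, higher in 4 of 13 libraries (exact sign-flip permutation test, 2-sided, p = 0.0420, adjusted p = 0.0980), and so did not hold after adjustment. It differed by sequencing run, at -24.0 in the 2 controls of CK-666 replicates 1 and 2, -50.9 in the 2 of NU7441 replicates 1 and 2, -11.2 in the 4 of CK-666 replicates 3 to 6, and 4.85 (3 libraries), 11.4 and 3.47 (1 each) in the other runs. Unmerged reads were most frequent in the first 2 of these runs, at 55.6% and 55.7% of members with treated libraries included, against 5.78% to 14.1% of AsiSI members in the others. Among merged reads alone the difference was 5.39 ± 13.4 points (exact p = 0.174), and without the 4 controls of those 2 runs it was -1.69 ± 10.1 (exact p = 0.621).

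Prey on chromosome 2, the chromosome of the bait, made up 26.9% ± 7.90 of the joins with 10 to 30 inserted bases and 30.9% ± 4.30 of direct joins (difference -4.005 ± 8.32 points, n = 13, exact p = 0.105, adjusted p = 0.183). In Cas9 DMSO libraries they made up 28.6%, 7.5% and 15.2% against 23.9%, 14.9% and 18.97% of direct joins (exact p = 0.75). Cas9 libraries had few proximal prey, 659 of 19414 junctions (3.39%). Among these were 8 opposite-strand copies, in 3 libraries, all read towards the motif, and 6 of the 8 had a prey position and insert also seen in AsiSI libraries. The Cas9 libraries shared a sequencing run with 2 of the AsiSI libraries.

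The share of junctions with 10 to 30 inserted bases was then compared between treatments, in pairs of a treated and a control library. With CK-666 it was 9.75%, 7.16%, 7.36%, 6.43%, 6.07% and 5.35% in replicates 1 to 6, and with DMSO 6.71%, 6.63%, 6.54%, 5.84%, 4.25% and 6.44%. It was higher with CK-666 in 5 of 6 pairs, and the ranges overlapped. The mean log2 ratio was 0.20 ± 0.30 (SD; exact sign-flip permutation test over pairs, 2-sided, p = 0.188, adjusted p = 0.5 over 12 comparisons), and the smallest p possible with 6 pairs is 0.03125. Among merged reads alone it was -0.36 ± 0.92 (exact p = 0.531). At the Cas9 bait the share was 4.23%, 12.4% and 2.35% with CK-666, against 4.42%, 13.95% and 4.17% with DMSO, and all 3 pairs were lower (mean log2 ratio -0.35 ± 0.41; exact p = 0.25, the smallest possible).

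With NU7441 the share was 8.09%, 9% and 2.60%, against 7.49%, 5.32% and 2.37% in its controls. All 3 pairs were higher with NU7441 (mean log2 ratio 0.33 ± 0.37, exact p = 0.25), with a mean of 0.12 without replicate 2. The third pair came from another run than the first 2 and lay far below them in both groups. Wiskostatin libraries had 5.01% and 6.20% against 2.97% and 6.21%, and actin R62D-NLS libraries 6.45% and 2.73% against 4.52% and 3.31%. With 2 pairs each no test was made, and in both experiments the pairs went in opposite directions.

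**Figure D4:**
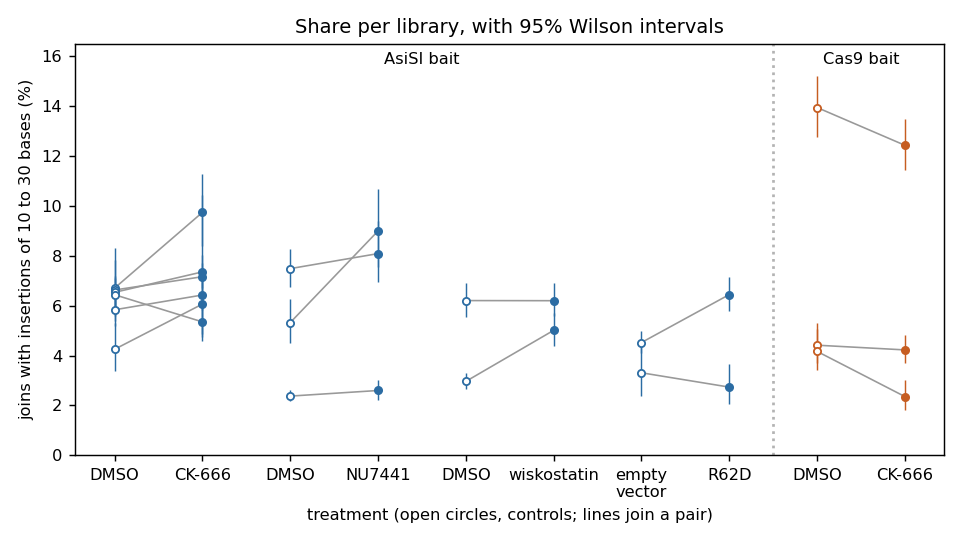
Share of junctions with 10 to 30 inserted bases (percent) in each library, with 95% Wilson intervals that cover counting error only. Open circles are controls, filled circles treated libraries, and lines join pairs; Cas9 replicate 2 stands at 13.95% and 12.4%, apart from the other 4 Cas9 libraries.

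The part of the members whose insert had an exact copy in the prey flank was lower with CK-666 in every pair, but not past the threshold after adjustment. An exact copy within 1 kb was found for 28.0%, 12.5%, 43.3%, 57.8%, 48.3% and 52.0% of inserts with CK-666, against 35.5%, 45.2%, 57.0%, 60.2%, 52.7% and 56.6% with DMSO. The values overlapped between groups, and 6 of 6 pairs were lower (mean log2 ratio -0.48 ± 0.69, exact p = 0.03125, adjusted p = 0.188), and replicate 2, with 24 inserts, gave the widest difference. Without it the ratio was -0.21, and among merged reads alone it was 0.13 ± 0.31 (exact p = 0.313). For inserts of 20 to 30 bases it was also lower in 6 of 6 pairs, with a mean difference of -13.01 ± 9.39 points (exact p = 0.03125, adjusted p = 0.188), with 0 of 11 in CK-666 replicate 2, which allows a share of up to 27.3%. Unmerged reads were 87.5% of members in that library and 35.5% in its control.

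Counted per 100 junctions, opposite-strand copies were at 2.55, 0.896, 2.68, 3.44, 2.93 and 2.49 with CK-666, against 2.29, 2.89, 3.00, 3.20, 2.18 and 3.37 with DMSO. The values overlapped, and 3 of 6 pairs were higher with CK-666 (mean log2 ratio -0.27 ± 0.76, exact p = 0.531, adjusted p = 0.638). The other members gave a mean log2 ratio of 0.42 ± 0.33, and 5 of 6 pairs were higher (exact p = 0.0625, adjusted p = 0.25). These 2 measures were added after the values were seen.

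With NU7441, opposite-strand copies per 100 junctions were 0.985, 0.0769 and 1.35, against 1.25, 0.942 and 1.05 in the controls (mean log2 ratio -1.20 ± 2.12, exact p = 0.75). Replicate 2 had 1 such copy among 117 members, 54.7% of which were telomeric, and decided the mean, which was 0.01 without it. Prey-flank copies made up 19.2%, 45.3% and 55.2% of inserts with NU7441 and 24.3%, 18.5% and 48.4% in the controls (exact p = 0.75), and all but 1 of those in replicate 2 with NU7441 held the telomeric repeat. For inserts of 20 to 30 bases the mean difference was 10.3 ± 14.8 points (exact p = 0.5). At the Cas9 bait, prey-flank copies made up 30.5%, 38.5% and 20% with CK-666, against 21.4%, 17.0% and 22.2% with DMSO (mean log2 ratio 0.51 ± 0.66, exact p = 0.5). These shares include telomeric inserts, which were 80.8% of members in CK-666 replicate 2 and 60.5% in DMSO replicate 2. With telomeric inserts set apart, opposite- and same-strand copies were 0.198% and 1.98% in that CK-666 library, and 0.455% and 1.59% in its control.

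**Figure D5:**
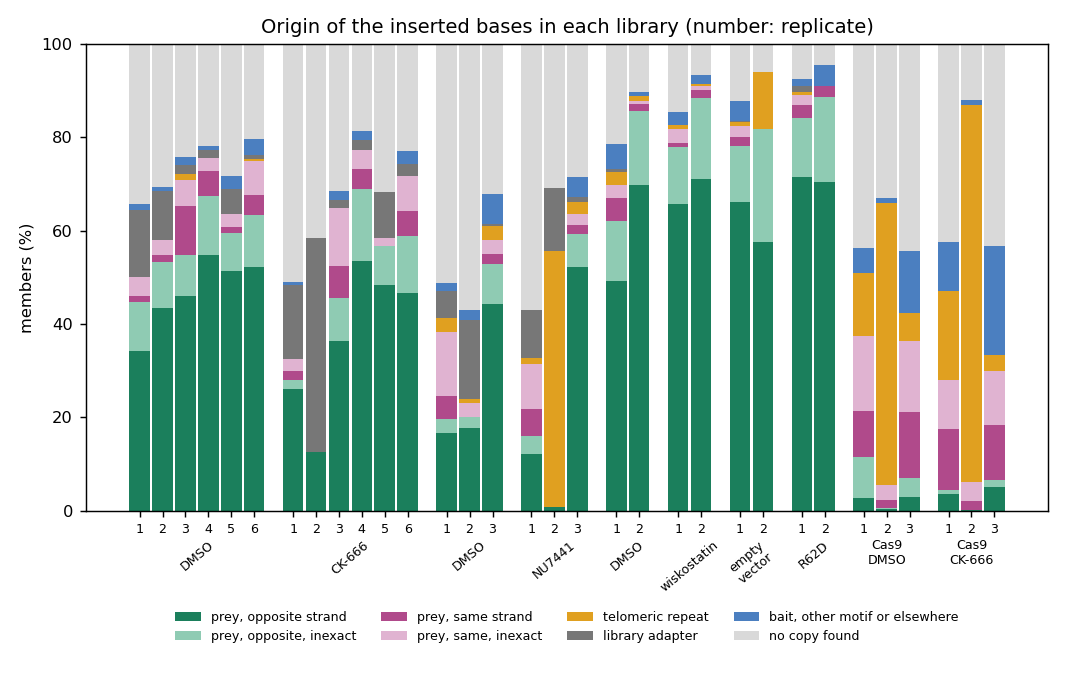
Origin of the inserted bases in each library, as percent of its members, with the replicate number under each bar; DMSO bars stand left of the treatment they belong to. Opposite-strand copies (dark green) run from 0.855% to 71.4% in AsiSI libraries, and telomeric repeat (yellow) takes over 50% in NU7441 replicate 2 and in replicate 2 of both Cas9 groups.

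Between baits, the 3 Cas9 DMSO libraries had 4.42%, 13.95% and 4.17% of junctions with 10 to 30 inserted bases, and the 13 AsiSI controls lay between 2.37% and 7.49% (median 5.84%). The mean log2 difference was 0.35 (exact permutation test over libraries, 2-sided, p = 0.375, adjusted p = 0.438), and it was -0.22 without Cas9 DMSO replicate 2. The single AsiSI control from the same run as the Cas9 libraries had 6.21%. Cell line, way of cutting and run differ between these libraries and cannot be told apart.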

How the data were processed

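HTGTS tables of 32 libraries were analysed, and the 12 Hi-C samples of the series were not used here. The authors used the Burrows–Wheeler Aligner on mm10, ran the HTGTS pipeline at default settings, kept mapping quality over 30 and removed duplicates. The deposited tables hold 1 line per junction and library, unpooled and not normalized: genome positions, read positions and the read itself.

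Insertion length was the number of read bases between the bait and prey alignments. Junctions per library ranged from 335 to 17479 and these joins from 24 to 506. Shares carry 95% Wilson intervals, which cover counting error only, and a count of 0 allows up to 3 counts.

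Each insert was assigned to the first class that held: a telomeric stretch of at least 9 bases; an exact copy within 1 kb of the prey, the nearest if several; one within 1 kb of the bait; one of at least 15 bases within 500 bp of another of the 1109 motifs; at most 5 edits to the library adapter over 20 bases, in the insert and the 12 following bases; an inexact copy (edits in up to 15% of bases) within 200 bp of the prey; an exact copy of at least 20 bases elsewhere in the genome. The adapter was taken as the commonest bases after the prey in direct joins. The search was tested on simulated inserts. Genes came from GENCODE vM21. The 79 repeat windows (10 kb) held at least 20 junctions of the Cas9 libraries, away from motifs and over 5 Mb from the bait.

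Treated and control libraries were paired by replicate number, because the study's source data set each control to 1 within its replicate; pairs also shared a sequencing run. Log2 ratios were tested by exact sign flips of pairs, members against direct joins by sign flips of libraries, and baits by permuting libraries, all 2-sided, with Benjamini-Hochberg adjustment over 12 treatment and 7 library comparisons. Members and classes were chosen with earlier results of these data known, so no count over them is independent support. Sites were named by their number of members in the 13 controls, and motifs of high and low share by their opposite-strand copies. Alternatives changed the length limits, search window, mismatches, repeats, motif set, comparison joins, merged reads, pairing and libraries. Python 3.11.15, numpy 2.4.6, pandas 2.3.3, scipy 1.17.1, edlib 1.3.9.post1 and matplotlib 3.10.9 were used.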

Additional observations from a re-analysis of the deposited data

Results flagged for a closer look

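Inserts that resembled the library adapter made up 45.8% of the members in CK-666 replicate 2, a library of 335 junctions and 24 members, against 1.78% to 15.9% in the other 5 CK-666 libraries, so this library stood apart from its group. The share of junctions with 10 to 30 inserted bases was 4.25% in DMSO replicate 5 of the CK-666 experiment, below the 5.84% to 6.71% of the other 5. Of 20 values tested in this way, chance alone marks about 1 in 20 groups.

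Junctions within 10 kb of the bait, which entered the comparisons only as an alternative, also held such joins: 619 of 12490 had 10 to 30 inserted bases (4.96%).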

How the results depend on the processing

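Of 145 alternative values, 118 kept direction and side of the 0.05 threshold or, where there was no test, moved by less than the spread between replicates; of 132 with 1 library or pair left out, 106 did. Untested values could change sign: actin R62D-NLS gave -0.17 with inserts of 20 to 30 bases. The cause of each change was not tested, and with 3 pairs no p can pass. Using merged reads only, chosen after seeing the data, turned the CK-666 share to -0.36, its prey-flank share to 0.13, the NU7441 prey-flank share to -0.040 and its 20-to-30-base share to -4.05 points, proximal prey to 5.39, prey on chromosome 2 to 2.01 (Cas9 2.69), and the Cas9 20-to-30-base share to 9.10%; some libraries then had no 20-to-30-base insert, so that CK-666 value was not computed. Without repeat windows, the Cas9 against AsiSI difference was -0.19, proximal prey -10.9 and Cas9 prey on chromosome 2 1.15. These windows were chosen from Cas9 junctions alone. They held 54.5% of the members of the 6 Cas9 libraries and 12.1% of those of the 13 AsiSI controls, so leaving them out does not treat the baits alike. Without simple repeats, NU7441 gave -1.91 points and -0.69, and the Cas9 share 2.56%. The Cas9 share was 24.7% with 1 mismatch and 20.2% over 10 to 30 bases. Among junctions with an insertion, Cas9 against AsiSI was -0.42 (exact p = 0.0179). Proximal prey stood at -7.58 for frequently cut motifs, -11.6 against all other junctions and -1.69 without 4 controls. Prey on chromosome 2 stood at -6.17 in the 6 DMSO libraries and 0.83 against all other junctions. For CK-666, the 20-to-30-base difference was -12.7 with distinct inserts, and the prey-flank share -0.47 within 200 bp and -0.48 with 1 mismatch.

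Without the pairing (no replicate block), the CK-666 values were -13.01 points (exact p = 0.210) and -0.48 (exact p = 0.212), no longer past the threshold; no other call changed.

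With 1 library or pair left out, the share ran from 0.12 to 0.44 (NU7441), -0.49 to -0.11 (Cas9 CK-666), -0.0011 to 0.76 (wiskostatin) and -0.28 to 0.51 (actin R62D-NLS), Cas9 against AsiSI ran from -0.22 to 0.65, proximal prey from -14.7 to -8.95, prey on chromosome 2 from -5.05 to -2.36 (Cas9 -5.62 to 0.43), the CK-666 20-to-30-base difference from -15.3 to -10.1, prey-flank shares from -0.57 to -0.21 (CK-666) and -0.074 to 0.74 (NU7441), and opposite-strand copies from -0.41 to 0.017 (CK-666) and -1.98 to 0.012 (NU7441).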
